A study of Rattus norvegicus with 12 samples.

Results

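A set of 10 genes that mark fibroblasts and mural cells, the non-myocyte cells of the connective tissue and small vessel walls of the heart, were followed in RNA sequenced from cultured neonatal rat ventricular myocytes (NRVMs). They were chosen by symbol (Pdgfra, Ddr2, Tcf21, Dcn, Lum, Thy1 and Vim for fibroblasts, and Pdgfrb, Rgs5 and Cspg4 for mural cells), and 10 of 10 were found among the 18469 genes of the deposited tables. NRVMs are heart muscle cells of newborn Sprague-Dawley rats that keep beating in culture, and they were transfected with a negative control siRNA (siNeg) or with siSlc25a26, an siRNA against Slc25a26, the mitochondrial carrier of S-adenosylmethionine. Each siRNA was used without further treatment or with PE (phenylephrine), which acts on α-adrenergic receptors and induces hypertrophic growth of cardiomyocytes, and which was added 12 h after transfection and kept on for 36 h. The resulting 4 groups (siNeg and siSlc25a26, each without and with PE) had 3 biological replicates each, and the medium of all groups was DMEM with insulin, transferrin and selenium. According to the study's methods, ventricular tissue was digested with collagenase and protease, and cardiomyocytes were separated from fibroblasts on a Percoll density gradient, which reduces the number of fibroblasts without removing every one. In bulk RNA, fewer cells of a type and less RNA of these genes per cell cannot be told apart.

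Cardiac fibroblasts make and renew the collagen-rich matrix between myocytes, while mural cells, the pericytes and smooth muscle cells, wrap the endothelium of small vessels. Both lineages carry platelet-derived growth factor (PDGF) receptors: PDGFRα marks resident fibroblasts and PDGFRβ is most abundant on mural cells, and ligand binding drives growth and migration. After injury, resting fibroblasts can turn into activated, contractile cells that secrete matrix, so that single fibroblast genes need not move together. None of these genes is strictly limited to its cell type, and vimentin is made by most cells of mesenchymal origin.

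Promoter windows of RefSeq (assembly GRCr8, from 250 bases before to 50 after each gene's start, 300 bases) were matched for 6 of the 10 genes: Tcf21, Lum, Cspg4, Rgs5, Pdgfra and Vim. Those of Vim, Tcf21 and Cspg4 are shown because these genes had 3 different patterns over the groups: Vim was lower with PE and with siSlc25a26, Tcf21 was lower with PE and higher with siSlc25a26, and Cspg4 stood apart in 1 group. Capitals mark matches, on either strand, to the CCAAT box (CCAAT), the GC box (GGGCGG) and the TATA box (TATAAA). The windows are Vim at chr17:81577011-81577310, Tcf21 at chr1:24520249-24520548 and Cspg4 at chr8:66160692-66160991, all on the plus strand.
Vim: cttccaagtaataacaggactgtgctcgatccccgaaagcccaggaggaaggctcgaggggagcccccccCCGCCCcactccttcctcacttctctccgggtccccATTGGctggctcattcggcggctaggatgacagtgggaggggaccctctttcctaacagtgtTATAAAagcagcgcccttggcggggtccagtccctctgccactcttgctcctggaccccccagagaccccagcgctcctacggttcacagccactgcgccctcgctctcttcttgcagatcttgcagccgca
Tcf21: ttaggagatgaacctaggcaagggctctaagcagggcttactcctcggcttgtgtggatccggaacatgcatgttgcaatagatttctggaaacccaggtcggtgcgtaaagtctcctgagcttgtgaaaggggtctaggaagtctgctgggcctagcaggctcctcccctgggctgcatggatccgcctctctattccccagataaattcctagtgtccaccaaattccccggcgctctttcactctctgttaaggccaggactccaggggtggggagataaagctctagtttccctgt
Cspg4: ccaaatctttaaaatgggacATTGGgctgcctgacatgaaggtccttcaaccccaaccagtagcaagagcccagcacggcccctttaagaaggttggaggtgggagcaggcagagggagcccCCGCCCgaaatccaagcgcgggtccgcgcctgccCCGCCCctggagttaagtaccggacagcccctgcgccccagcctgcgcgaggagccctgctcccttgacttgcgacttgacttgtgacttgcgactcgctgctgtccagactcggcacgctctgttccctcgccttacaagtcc
The Vim window held 1 CCAAT box, 1 GC box and 1 TATA box, with 62.0% G or C. The Cspg4 window held 1 CCAAT box and 2 GC boxes, also with 62.0% G or C. In the Tcf21 window, with 53.7% G or C, none of these 3 motifs was matched. Neither an E-box (CANNTG) nor an AP-1 motif (TGANTCA) was matched in any of the 3 windows shown. Of all 27457 promoter windows of the same length, 37.7% held the CCAAT box, 34.9% the GC box, 14.3% the TATA box, 71.6% the E-box and 7.33% the AP-1 motif. A match describes letters in the window and does not show that a factor binds there.

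Total counts per library ranged from 24770972 to 28709049. Slc25a26 was at 31.4 ± 2.01 CPM (read counts scaled to library size with TMM factors; SD, n = 3) in siNeg and 15.1 ± 0.612 in siSlc25a26 (log2 fold change -1.08, edgeR adjusted p = 1.08e-05), but at 102 ± 14.1 in siNeg PE and 102.3 ± 3.68 in the libraries labelled siSlc25a26 PE (-0.0062, adjusted p = 0.969), so the targeted transcript was not lower there and the labels of that group are used as given. Nppa, the natriuretic peptide gene induced in hypertrophy, rose from 120 to 3000 CPM with PE in siNeg. Over the 12 libraries, the defining cardiomyocyte genes were abundant, with a mean of 5002 FPKM (fragments scaled by gene length and library size) for the cardiac troponin gene Tnnt2 and 10900 FPKM for cardiac actin Actc1. Collagen I (Col1a1) had 1491 FPKM, whereas endothelial Pecam1 and Cdh5 had 0.276 and 0.125 FPKM and the leukocyte gene Ptprc had 0.13 FPKM.

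Compared per length (FPKM), the 10 genes differed widely in level. In siNeg, Vim, the intermediate filament of mesenchymal cells, was highest at 1326 ± 50.6 FPKM (SD, n = 3). It was followed by Pdgfrb at 84.1 ± 5.4 FPKM and by decorin (Dcn), a small proteoglycan that binds collagen fibrils, at 67.5 ± 7.44 FPKM. Levels between these and the lowest genes belonged to Lum (36.5 ± 2.57 FPKM), Tcf21 (31.3 ± 4.28), Cspg4 (25.8 ± 2.1), Ddr2 (20.9 ± 0.85), Thy1 (15.4 ± 1.49) and Pdgfra (10.8 ± 0.301). Rgs5, a regulator of G protein signalling that is among the usual pericyte markers, was at 1.23 ± 0.664 FPKM. The libraries of Lum and Tcf21 overlapped, and no other neighbours in this order did. Other pericyte genes were also low over the 12 libraries, with means of 0.775 FPKM for the potassium channel gene Kcnj8, 0.248 for Higd1b, 0.197 for Ndufa4l2 and 0.02 for Vtn, while Abcc9, Mcam and Notch3 had 25.9, 112 and 9.89 FPKM.

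The order changed between groups. In siNeg PE, Dcn (78.9 FPKM) stood above Pdgfrb (49.7 FPKM), and Pdgfra (13.5 FPKM) above Thy1 (9.42 FPKM). In siSlc25a26, Tcf21 stood above Lum at 43.0 FPKM, and Cspg4 (26.2 FPKM) and Lum (25.6 FPKM) overlapped. In the libraries labelled siSlc25a26 PE, Cspg4 (50.5 FPKM) overlapped with Pdgfrb (54.7 FPKM) and Tcf21 (28.1 FPKM) with Lum (23.0 FPKM). Vim was first and Rgs5 last in all 4 groups. Together the 10 genes took 0.326 to 0.346% of all counts in siNeg, 0.223 to 0.229% in siNeg PE, 0.235 to 0.238% in siSlc25a26 and 0.191 to 0.200% in siSlc25a26 PE. Vim gave more of these counts than any other of the 10 genes in every library.

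**Figure D1:**
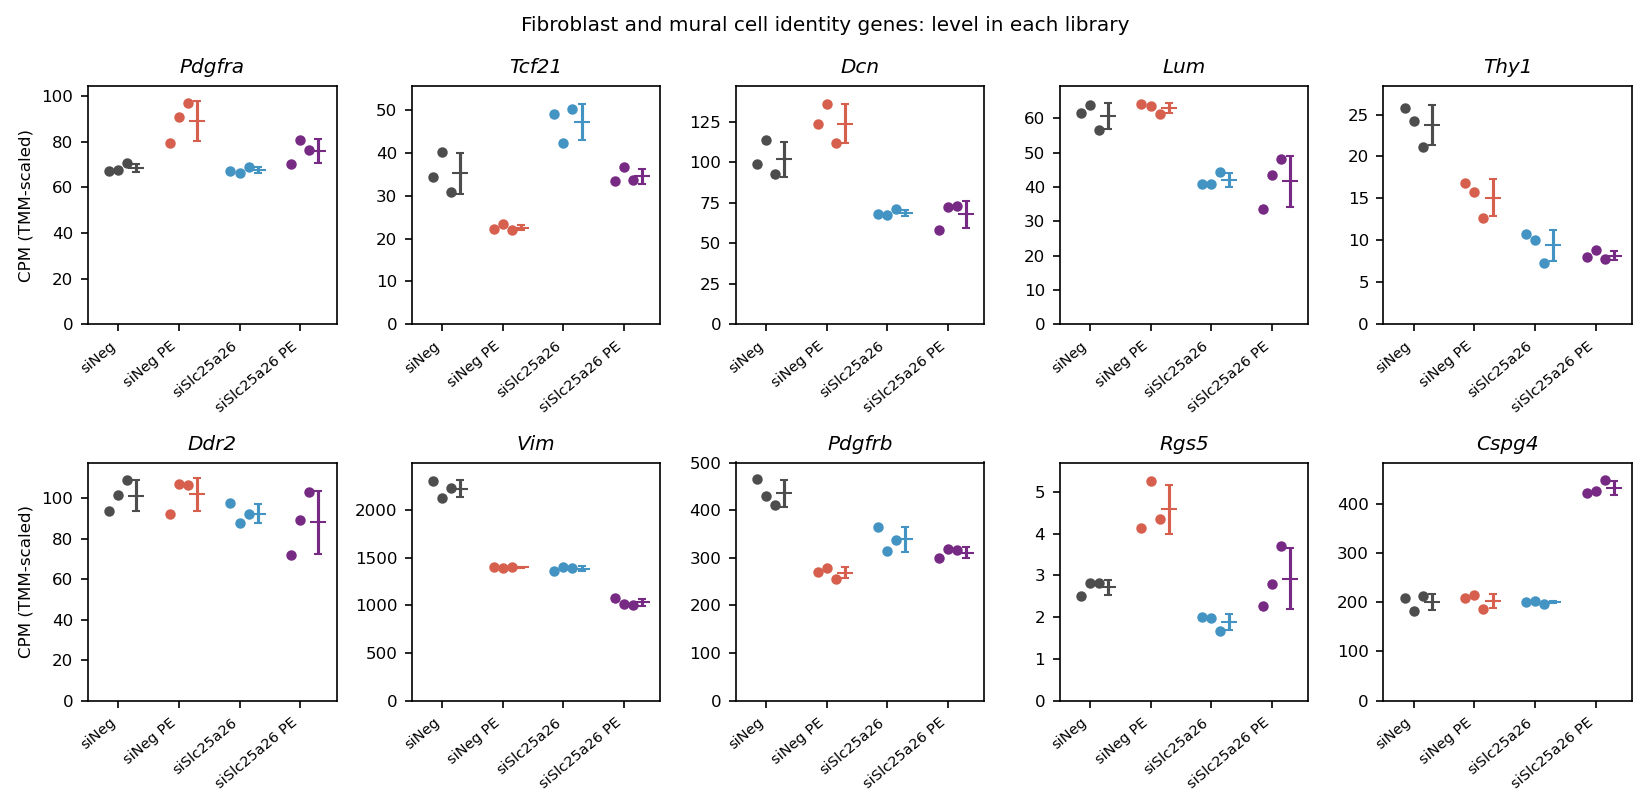
Level of each of the 10 genes (TMM-scaled CPM, linear axis from 0) in the 3 libraries of siNeg, siNeg PE, siSlc25a26 and siSlc25a26 PE. Points are libraries and the bars beside them the mean ± SD. Cspg4 lay between 423 and 447.5 in siSlc25a26 PE, above its 9 other libraries, while Thy1 was lowest in the siSlc25a26 groups.

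The 10 genes did not move as a block in any comparison. A gene was called higher or lower at a fold change above 1.5 with an adjusted p under 0.05 in edgeR's quasi-likelihood test over all genes tested, and the 10 genes passed the filter on low counts each time. With PE in siNeg, Tcf21, Thy1, Vim and Pdgfrb fell and Rgs5 rose, that is 4 lower and 1 higher, against 8.24% of 13719 genes called lower and 12.4% called higher. Without a fold threshold, 7 of the 10 passed, against 49.5% of all genes. The median log2 fold change of the 10 genes was -0.0026, beside 0.00016 over all genes. Without PE, siSlc25a26 lowered Dcn, Thy1 and Vim, 3 of the 10, and 0 were called higher by edgeR, DESeq2 or limma-voom. At an unadjusted p under 0.05, 1 of the 10, Tcf21, was higher. The background was 7.2% of 13829 genes called lower, 8.92% called higher and 45% past the adjusted p alone, which 7 of the 10 passed. The median over the 10 genes was -0.47, against 0.015 over all genes.

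Under PE, the libraries labelled siSlc25a26 PE had lower Dcn, Lum, Thy1 and Rgs5 and higher Tcf21 and Cspg4 than siNeg PE. These are 4 genes lower and 2 higher, beside 8.1% and 7.71% of 13671 genes, and 9 of 10 passed the adjusted p alone, beside 40.1%. The median was -0.34 for the 10 genes and -0.0028 for all genes. With PE in siSlc25a26, Cspg4 and Rgs5 rose and 0 of the 10 were called lower by edgeR, DESeq2 or limma-voom, where 10.1% of 13776 genes were called higher and 10.4% lower. At an unadjusted p under 0.05, 2 of the 10 (Tcf21 and Vim) were lower. At any fold, 5 of 10 passed, against 52.4%, and the medians were -0.034 for the 10 and -0.0036 for all genes. In the test of whether the PE effect differed between the siRNAs, Cspg4 was the 1 gene called, with a more positive PE effect in siSlc25a26, where 2.16% of 14097 genes were called in that direction and 3.34% in the other. At any fold, Vim, Pdgfrb and Cspg4 passed, 3 of 10, against 11.2%. Comparisons with a common group share its 3 libraries, so their counts are not independent of each other.

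**Figure D2:**
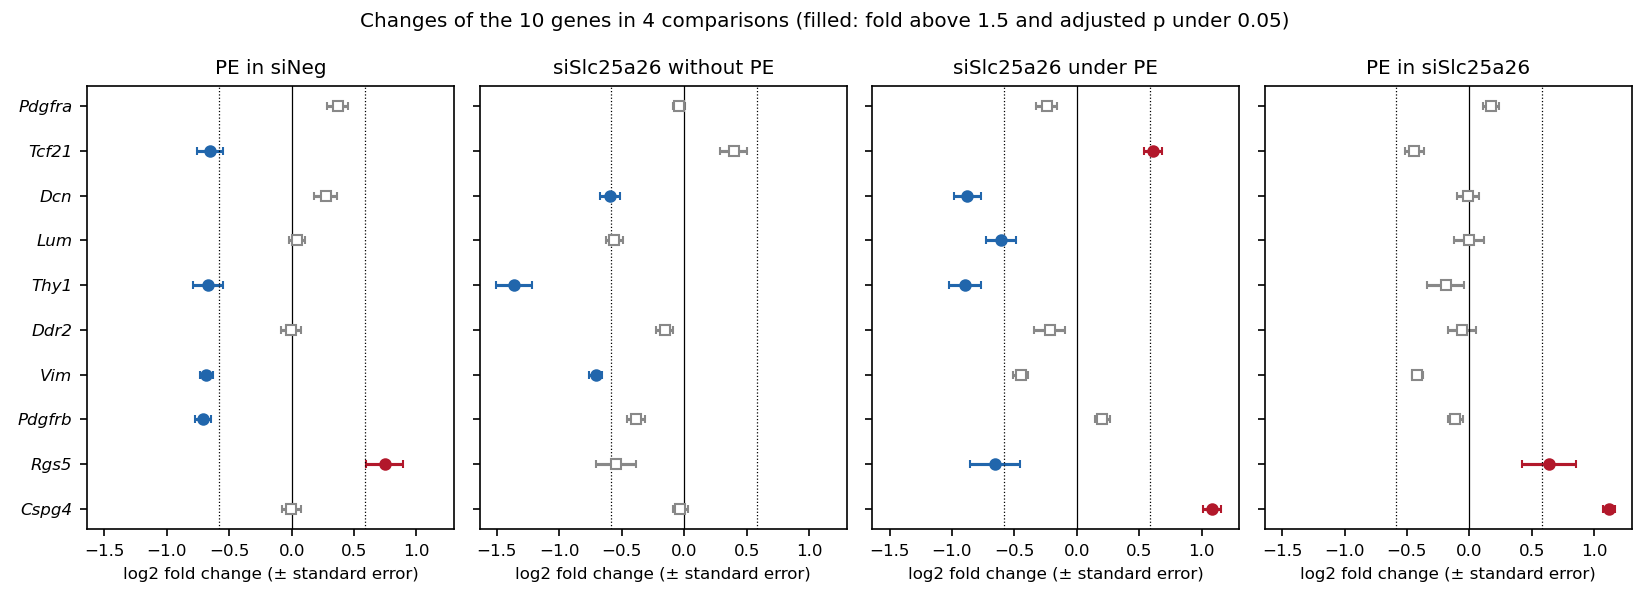
Log2 fold change ± standard error of each gene (x axis) in the 4 comparisons between groups. Filled circles passed the 1.5-fold threshold (dotted lines) and the adjusted p of 0.05, in red for higher and blue for lower, and open squares did not. The largest decrease is that of Thy1 without PE (-1.36), and Cspg4 is the gene furthest to the right under PE (1.09) and with PE in siSlc25a26 (1.12).

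Pdgfra, the receptor for PDGF on resident fibroblasts, was called in none of the 4 comparisons. Its CPM values were 67.3, 67.4 and 70.6 in siNeg and 79.5, 90.6 and 97.0 in siNeg PE. They were 67.3, 66.3 and 69.1 in siSlc25a26 and 70.2, 80.8 and 76.3 in the libraries labelled siSlc25a26 PE. The siNeg PE libraries lay above the siNeg libraries without overlap, whereas siSlc25a26 overlapped with siNeg. The PE difference in siNeg was 0.37 ± 0.0815 on the log2 scale (SE, n = 3; edgeR adjusted p = 0.0067), under the fold threshold. Under PE, the siSlc25a26 label went with a difference of -0.24 ± 0.0844 (edgeR adjusted p = 0.0482), and without PE with -0.044 ± 0.0486 (adjusted p = 0.493). The PE difference in siSlc25a26 was 0.18 ± 0.0625 (adjusted p = 0.0409). On the FPKM scales it was 0.0016 and 0.0015 with a pseudocount of 1 and 0.1 (limma adjusted p = 0.987 and 0.988). Relative to the median of all genes these were 0.127 and 0.173.

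Ddr2 encodes a collagen-binding receptor tyrosine kinase that fibroblasts use to sense matrix. It had 93.5, 101 and 109 CPM in siNeg, 92.4, 107 and 106 in siNeg PE, 97.5, 87.8 and 92.0 in siSlc25a26 and 71.9, 89.2 and 103 in the libraries labelled siSlc25a26 PE. In CPM all 4 groups overlapped, and the spread was widest in the last. In the 4 comparisons the log2 differences by edgeR lay between -0.22 ± 0.124 (siSlc25a26 under PE, edgeR adjusted p = 0.195) and -0.0027 ± 0.081 (PE in siNeg, adjusted p = 0.981), and none was called. The ratio of counts to FPKM implied a gene length between 4721 and 6069 bases for Ddr2 in different libraries, so its CPM and FPKM values are not interchangeable. In FPKM, the siNeg libraries (20.3, 20.4 and 21.9) lay above the siNeg PE libraries (15.7, 17.4 and 17.7) without overlap. On the log2(FPKM + 1) scale the PE difference was -0.29 in siNeg (limma adjusted p = 0.00805) and -0.30 in siSlc25a26 (limma adjusted p = 0.037), both within 1.5-fold. Relative to the median of all genes on this scale they were -0.25 and -0.17. Whether Ddr2 was lower with PE therefore depends on the deposited table used.

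Tcf21, a transcription factor that resident cardiac fibroblasts keep from their epicardial origin, moved in opposite directions with PE and with siSlc25a26. Its CPM values were 34.5, 40.3 and 30.9 in siNeg and 22.3, 23.3 and 22.1 in siNeg PE. They were 49.1, 42.4 and 50.4 in siSlc25a26 and 33.4, 36.6 and 33.8 in the libraries labelled siSlc25a26 PE. The siNeg PE libraries were the lowest and the siSlc25a26 libraries the highest, with the other groups overlapping in between. PE in siNeg lowered Tcf21 by a log2 change of -0.65 ± 0.101 (SE, n = 3; edgeR adjusted p = 0.00127). This call did not hold without siNeg replicate 2, where the log2 change was -0.55. Under PE, Tcf21 rose by 0.61 ± 0.0719 in the libraries labelled siSlc25a26 PE, whose targeted gene was not lower (edgeR adjusted p = 0.000254). That call lies close to the fold threshold and did not hold without siNeg PE replicate 3 or without siSlc25a26 PE replicate 2 (0.57 in each case), nor on the FPKM scale (0.52 and 0.54 with a pseudocount of 1 and 0.1). Without PE the difference was 0.40 ± 0.108 (adjusted p = 0.0156), and with PE in siSlc25a26 it was -0.44 ± 0.0792 (adjusted p = 0.00154), both within 1.5-fold.

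Decorin and lumican, small leucine-rich proteoglycans that regulate collagen fibril growth, had the most similar patterns of any pair of the 10 genes. Dcn had 98.8, 114 and 92.7 CPM in siNeg, 124, 136 and 112 in siNeg PE, 67.8, 67.7 and 71.0 in siSlc25a26 and 58.2, 72.4 and 73.1 in the libraries labelled siSlc25a26 PE. Lum had 61.7, 64.0 and 56.6 CPM in siNeg, 64.2, 63.6 and 61.4 in siNeg PE, 40.9, 40.8 and 44.3 in siSlc25a26 and 33.4, 43.5 and 48.0 in siSlc25a26 PE. For both genes every siSlc25a26 library, with or without PE, lay below every siNeg library. Their patterns, each centred on its own mean log2 CPM, differed by a root mean square of 0.13 over the 12 libraries.

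Dcn fell with siSlc25a26 both without PE (-0.59 ± 0.0801, SE, n = 3; edgeR adjusted p = 0.00045) and under PE (-0.88 ± 0.107, adjusted p = 0.000297). The change without PE sat at the fold threshold: the call did not hold without siNeg replicate 2 (-0.51) or without siSlc25a26 replicate 1 or 2 (-0.58 in each case), and on the FPKM scale it was -0.52 and -0.53 with a pseudocount of 1 and 0.1. Lum was lower in the libraries labelled siSlc25a26 PE than in siNeg PE (-0.61 ± 0.122, edgeR adjusted p = 0.00428), but not without siSlc25a26 PE replicate 1 (-0.47). Its difference without PE was -0.56 ± 0.0687 (adjusted p = 0.000254), just within 1.5-fold, and it was called without siNeg replicate 3 (-0.63) or without siSlc25a26 replicate 3 (-0.60). The decreases under PE came with libraries in which Slc25a26 itself was not lower. PE left Lum at 0.041 ± 0.0639 in siNeg (adjusted p = 0.619) and -0.00063 ± 0.12 in siSlc25a26 (adjusted p = 0.997). For Dcn the PE differences were 0.27 ± 0.0933 in siNeg (adjusted p = 0.0407) and -0.0088 ± 0.088 in siSlc25a26 (adjusted p = 0.942), and these 2 values did not differ past the threshold (-0.30 ± 0.14, adjusted p = 0.19). On the FPKM scales the PE difference of Dcn in siNeg was 0.23 with either pseudocount (limma adjusted p = 0.0631 with 1 and 0.0624 with 0.1).

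Thy1, a surface glycoprotein used to sort fibroblasts, had the largest decrease of the 10 genes. Its CPM values were 25.8, 24.3 and 21.1 in siNeg and 16.8, 15.8 and 12.7 in siNeg PE. They were 10.8, 10.1 and 7.33 in siSlc25a26 and 7.999, 8.82 and 7.73 in the libraries labelled siSlc25a26 PE. Every library with siSlc25a26 lay below every siNeg PE library, and these below every siNeg library. Without PE, siSlc25a26 lowered Thy1 by a log2 change of -1.36 ± 0.143, or 2.57-fold (SE, n = 3; edgeR adjusted p = 0.000103). Under PE the libraries labelled siSlc25a26 PE were lower by -0.89 ± 0.129 (edgeR adjusted p = 0.000769). PE in siNeg lowered Thy1 by -0.67 ± 0.121 (edgeR adjusted p = 0.00279), a call that did not hold without siNeg PE replicate 3 (-0.56). With PE in siSlc25a26 the difference was -0.19 ± 0.146 (adjusted p = 0.304), and the test between the PE effects gave 0.45 ± 0.204 (adjusted p = 0.181). On the FPKM scales PE in siSlc25a26 gave -0.34 and -0.39 with a pseudocount of 1 and 0.1 (limma adjusted p = 0.0455 and 0.043). Relative to the median of all genes these were -0.215 and -0.221.

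Vim fell with both factors, and in CPM its siNeg PE replicates were the tightest of all 10 genes relative to their mean. In FPKM those of Lum were tighter in this sense (36.3 ± 0.336, SD, against 802 ± 17.9 for Vim). It had 2309, 2130 and 2236 CPM in siNeg and 1401, 1391 and 1403 in siNeg PE. It had 1360, 1400 and 1396 CPM in siSlc25a26 and 1073, 1016 and 1003 in the libraries labelled siSlc25a26 PE. The siNeg libraries were the highest, the siSlc25a26 PE libraries the lowest, and siNeg PE and siSlc25a26 lay together in between. PE in siNeg lowered Vim by -0.68 ± 0.0545 on the log2 scale (SE, n = 3; edgeR adjusted p = 5.65e-05) and siSlc25a26 without PE by -0.71 ± 0.05 (adjusted p = 7.87e-06). The further differences were smaller, at -0.42 ± 0.0461 for PE in siSlc25a26 (adjusted p = 8.95e-05) and -0.45 ± 0.0586 for siSlc25a26 under PE (adjusted p = 0.000429), and neither reached 1.5-fold. The PE effect was 0.24 ± 0.0672 less negative in siSlc25a26 than in siNeg (edgeR adjusted p = 0.0363), a difference that did not pass on the FPKM scale (0.13, limma adjusted p = 0.207 with a pseudocount of 1). Relative to the median of all genes on the FPKM scales it was 0.24 and 0.27 with a pseudocount of 1 and 0.1, so its size was kept there and the test was not passed.

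Pdgfrb, the PDGF receptor of pericytes and smooth muscle cells, fell with PE in siNeg, and its PE effect in siSlc25a26 was nearer to 0. Its CPM values were 466, 429.9 and 410.5 in siNeg and 270.2, 279 and 256 in siNeg PE. They were 365, 314 and 337 in siSlc25a26 and 299, 318 and 317 in the libraries labelled siSlc25a26 PE. The siNeg PE libraries were the lowest of all and the siNeg libraries the highest, while both siSlc25a26 groups overlapped in the middle. PE in siNeg lowered Pdgfrb by -0.71 ± 0.0632 (SE, n = 3; edgeR adjusted p = 9.58e-05), and PE in siSlc25a26 gave -0.11 ± 0.0625 (adjusted p = 0.162). On the FPKM scales PE in siSlc25a26 gave -0.28 with either pseudocount (limma adjusted p = 0.00672 with 1 and 0.00658 with 0.1). Relative to the median of all genes these were -0.15 and -0.11. By edgeR, the PE effects in the 2 siRNA states differed by 0.58 ± 0.0918 (adjusted p = 0.00224), a 1.49-fold difference that missed the fold threshold. It was called at 0.60 without siNeg PE replicate 2 or without siSlc25a26 PE replicate 1, at 0.62 without siNeg replicate 3 and at 0.64 without siSlc25a26 replicate 1. The siSlc25a26 difference was -0.39 ± 0.0713 without PE (adjusted p = 0.00236) and 0.20 ± 0.0622 under PE (adjusted p = 0.028), the latter again with Slc25a26 itself not lower. The latter did not pass on the FPKM scales (0.14 with either pseudocount, limma adjusted p = 0.0738 with 1 and 0.0772 with 0.1).

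Rgs5 rested on few reads. The deposited counts were 69, 74 and 76 in siNeg and 104, 135 and 109 in siNeg PE. They were 59, 60 and 48 in siSlc25a26 and 58, 70 and 96 in the libraries labelled siSlc25a26 PE. In CPM, siNeg PE was highest (4.14, 5.25 and 4.35) without overlap, and siSlc25a26 lowest (2.01, 1.99 and 1.67). The edgeR test on counts called Rgs5 higher with PE in siNeg (0.75 ± 0.148, SE, n = 3; adjusted p = 0.00419) and in siSlc25a26 (0.64 ± 0.217, adjusted p = 0.0342). Under PE it was called lower in the libraries labelled siSlc25a26 PE (-0.66 ± 0.201, adjusted p = 0.0286). On the FPKM scale none of these 3 calls held with a pseudocount of 1 or 0.1 (with 1, 0.16, limma adjusted p = 0.503; 0.34, adjusted p = 0.189; and -0.15, adjusted p = 0.578). With 0.1 the values were 0.30, 0.61 and -0.30, so for PE in siSlc25a26 the log2 change was about as large as by edgeR and the adjusted p was 0.182. The ratio of counts to FPKM implied a gene length from 1471 to 3617 bases for Rgs5, a 2.46-fold range against a median of 1.02 over 11962 genes, so counts and FPKM order the libraries differently for this gene. For PE in siSlc25a26 the call did not hold without siSlc25a26 replicate 1, 2 or 3 (0.68, 0.67 and 0.56) or without siSlc25a26 PE replicate 2 or 3 (0.68 and 0.42). Under PE it did not hold without siNeg PE replicate 2 or 3 (-0.55, and -0.71 with an adjusted p of 0.0526) or siSlc25a26 PE replicate 1 or 2 (-0.50 and -0.62). Without PE the difference was -0.55 ± 0.162 (edgeR adjusted p = 0.023), called without siNeg replicate 1 (-0.60) or siSlc25a26 replicate 1 (-0.59).

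Cspg4, which encodes the proteoglycan NG2 of pericytes and glial progenitors, was alike in 3 groups and higher in the last. It had 208.5, 181.5 and 212.5 CPM in siNeg, 208, 214 and 186 in siNeg PE and 201, 202 and 197 in siSlc25a26. The libraries labelled siSlc25a26 PE had 423, 425 and 447.5 CPM. No library of this group overlapped with any of the other 9, which overlapped with each other. Against siNeg PE, Cspg4 rose by 1.09 ± 0.0724 on the log2 scale, or 2.12-fold (SE, n = 3; edgeR adjusted p = 7.53e-06), in libraries whose targeted gene was not lower. PE in siSlc25a26 raised it by 1.12 ± 0.0479 (edgeR adjusted p = 3.43e-07). PE in siNeg gave -0.0024 ± 0.0758 (adjusted p = 0.982) and siSlc25a26 without PE -0.031 ± 0.0604 (adjusted p = 0.7). The PE effects differed by 1.10 ± 0.0943, or 2.14-fold (edgeR adjusted p = 0.000105), which put Cspg4 at rank 4 by p among 14097 genes. These 3 calls held on every scale and without any single library.

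**Figure D3:**
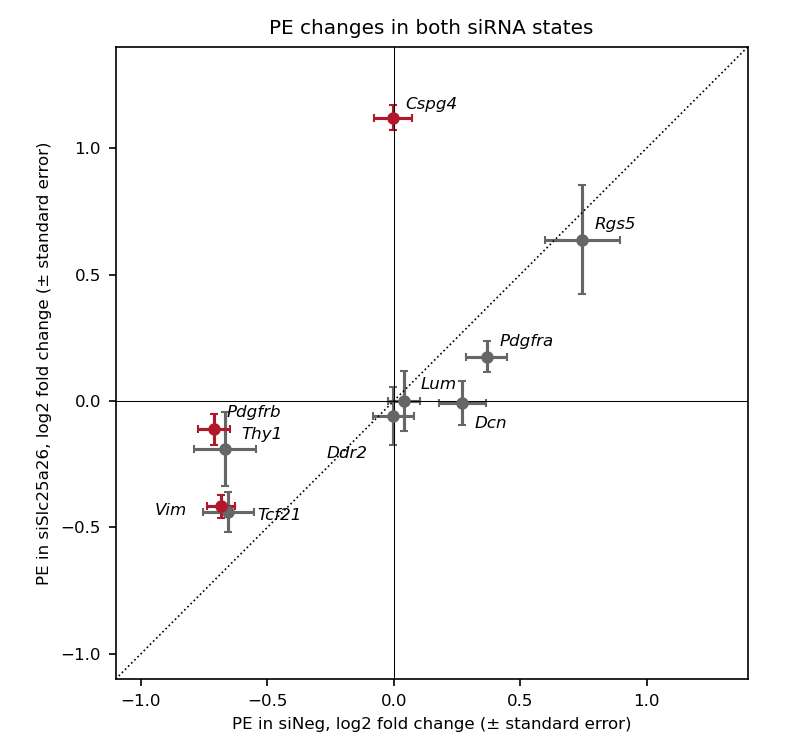
Log2 fold change ± standard error of each gene with PE in siNeg (x axis) and with PE in siSlc25a26 (y axis); on the dotted diagonal the effects are equal. Red marks the 3 genes whose PE effects differed with an adjusted p under 0.05: Cspg4 lies far above the diagonal (difference 1.10), Pdgfrb above it (0.58) and Vim slightly above it (0.24).

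Ratios of 2 genes within a library do not depend on how libraries are scaled. The CPM ratio of Pdgfrb to Pdgfra was 6.37 ± 0.557 in siNeg (SD, n = 3), 3.04 ± 0.38 in siNeg PE, 5.01 ± 0.364 in siSlc25a26 and 4.11 ± 0.165 in siSlc25a26 PE. That of Cspg4 to Pdgfrb, both mural genes, was 0.462 ± 0.0494 in siNeg, 0.753 ± 0.0249 in siNeg PE, 0.593 ± 0.0459 in siSlc25a26 and 1.39 ± 0.0432 in siSlc25a26 PE. Of the fibroblast genes, Tcf21 to Thy1 was 1.49 ± 0.163 in siNeg and 1.52 ± 0.212 in siNeg PE, but 5.21 ± 1.45 in siSlc25a26 and 4.24 ± 0.122 in siSlc25a26 PE. Dcn to Lum stayed between 1.64 ± 0.033 in siSlc25a26 and 1.97 ± 0.161 in siNeg PE. Of these ratios, that of Dcn to Lum varied least over the groups. Over all pairs of the 10 genes, the closest after Dcn and Lum were Pdgfra with Ddr2 (root mean square difference 0.185 in log2 CPM) and Lum with Ddr2 (0.224).

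The gene nearest in pattern was a non-member for each of the 10, among 10792 genes with a mean of at least 5 CPM and over the 12 libraries. By the root mean square difference of centred log2 CPM, these were Hps3 for Pdgfra (0.0641), Rgs3 for Tcf21 (0.0903), Srpx for Dcn (0.129), Tmem168 for Lum (0.117) and Crip1 for Thy1 (0.131). They were Cyp4f5 for Ddr2 (0.0821), Pqlc3 for Vim (0.0729), Fhod1 for Pdgfrb (0.068), Kntc1 for Rgs5 (0.11) and Rrp12 for Cspg4 (0.0915). Among the 10 genes, only for Dcn did another of them, Lum, come second.

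The other genes of these cell types, from lists written for this work, give the setting of the 10. With PE in siNeg, 11 of 25 other fibroblast genes tested fell and 2 rose, with a median log2 fold change of -0.56. For this and the next lists in this comparison, the share over all genes was 8.24% called lower and 12.4% higher. The fibril collagen Col3a1 (-1.26), fibronectin Fn1 (-1.15), the collagen-binding protein Dpt (-1.07) and Mfap5, a microfibril protein (-2.87), had the largest changes, the last from 1.08 to 0.144 CPM. Of 18 other mural cell genes, 8 fell and 1 rose (median -0.42), with Tagln (-1.29), Lmod1 (-1.43) and Notch3 (-0.99) lower and calponin Cnn1 (1.58) higher. Among 15 genes of activated fibroblasts, 4 fell and 1 rose: Ltbp2 (-1.53), Tnc (-1.44) and Cilp (-1.21) were lower and Comp (1.89) higher. Comp was near the floor, from 0.223 to 0.843 CPM, and limma on log2(FPKM + 1) called 0 activated genes higher. Of 8 other small leucine-rich proteoglycans tested, 3 fell, led by fibromodulin Fmod (-1.81) and Prelp (-1.07), while Dcn and Lum were not called.

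Without PE, siSlc25a26 lowered 16 of 25 other fibroblast genes (median -0.76), and 0 were called higher by edgeR, DESeq2 or limma-voom, 2 at an unadjusted p under 0.05. Over all genes, 7.2% were called lower and 8.92% higher in this comparison. The lowered fibroblast genes included Col6a3 (-1.96), Serpinf1 (-1.43), Dpt (-1.39) and Mfap5 (-1.38). The siSlc25a26 siRNA lowered 8 of 18 other mural cell genes (median -0.50), with smooth muscle myosin Myh11 (-1.42), Cnn1 (-1.19) and Tagln (-1.12) as the largest. Of these 18, 0 were called higher by the 3 tools and 1 was higher at an unadjusted p under 0.05. In the activated list, 7 of 14 fell and 1 rose, the transcription factor Meox1 (1.39), which is known from activated fibroblasts, whereas Fap (-1.64) and Ltbp2 (-1.55) fell. Meox1 and Fap were low, with means of 1.5 and 0.70 FPKM over the 12 libraries, and Meox1 was at 0.99 CPM in siNeg. Biglycan Bgn (-1.09), Fmod (-0.99) and Aspn (-0.80) were the 3 of 8 proteoglycans that fell.

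Under PE, the libraries labelled siSlc25a26 PE had 9 of 24 other fibroblast genes lower and 1 higher (median -0.36), with Dpt (-1.26), Serpinf1 (-1.12), Mmp2 (-0.97) and Col6a3 (-0.95) lower. Over all genes, 8.1% were called lower and 7.71% higher in this comparison. Of 18 other mural cell genes, 4 were lower, among them Myh11 (-0.92) and Tagln (-0.61), with a median of -0.23. None was called higher by edgeR (0 by DESeq2, 1 by limma-voom, and 4 at an unadjusted p under 0.05), where Cspg4 rose. The proteoglycans Aspn (-1.14), Fmod (-0.69), Ogn (-0.67) and Bgn (-0.60) were the 4 of 8 that were lower, beside Dcn and Lum. Meox1 (1.91) rose and Fap (-1.59), Comp (-1.37, from 0.843 CPM in siNeg PE) and Postn (-1.35) fell among 15 activated genes, of which 2 were higher and 4 lower. With PE in siSlc25a26, other fibroblast genes were higher in 2 and lower in 2 of 24 (median -0.036) by edgeR, and higher in 2 and lower in 5 or 6 by limma on FPKM, with Nt5e (1.18) and Tbx20 (0.89) higher and Dpt (-0.93) and Col3a1 (-0.73) lower. By edgeR, 10.1% of all genes were called higher and 10.4% lower there, shares that this list lay near. Of 8 other small leucine-rich proteoglycans tested, 4 fell with PE in siSlc25a26 by edgeR and limma-voom and 3 by DESeq2. By edgeR these were Fmod (-1.50), Podn (-0.88), Omd (-0.67, at a mean of 0.71 FPKM over the 12 libraries) and Prelp (-0.60). The median of this list was -0.46, and 1 of its genes was higher at an unadjusted p under 0.05. Other mural cell genes were higher in 3 and lower in 4 of 18, led by Cnn1 (3.35), Mcam (1.04) and desmin Des (0.99), of which Des is also a cardiomyocyte gene. The 4 activated genes that rose, of 14, were the growth factor Ccn2, listed as Ctgf (1.39), Meox1 (1.23), Itgb1 (1.07) and Ckap4 (0.71). None of these 4 genes, nor Tbx20, is limited to fibroblasts, so bulk RNA cannot show which cells gave these rises. Of all genes, 2.16% were called for a more positive PE effect in siSlc25a26 and 3.34% for the opposite. The PE effect was more positive in siSlc25a26 for 4 of 25 other fibroblast genes, among them Col6a3 (1.00) and Fn1 (0.77). It was so for 5 of 15 activated genes, with Ctgf (1.43), Ltbp2 (1.27) and Tnc (1.24), and for Cnn1 (1.75), Acta2 (0.88) and Notch3 (0.59) among 18 mural genes, and the opposite was called for 0 genes of these lists by edgeR, DESeq2 or limma-voom (at most 1 gene of a list at an unadjusted p under 0.05).

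**Figure D4:**
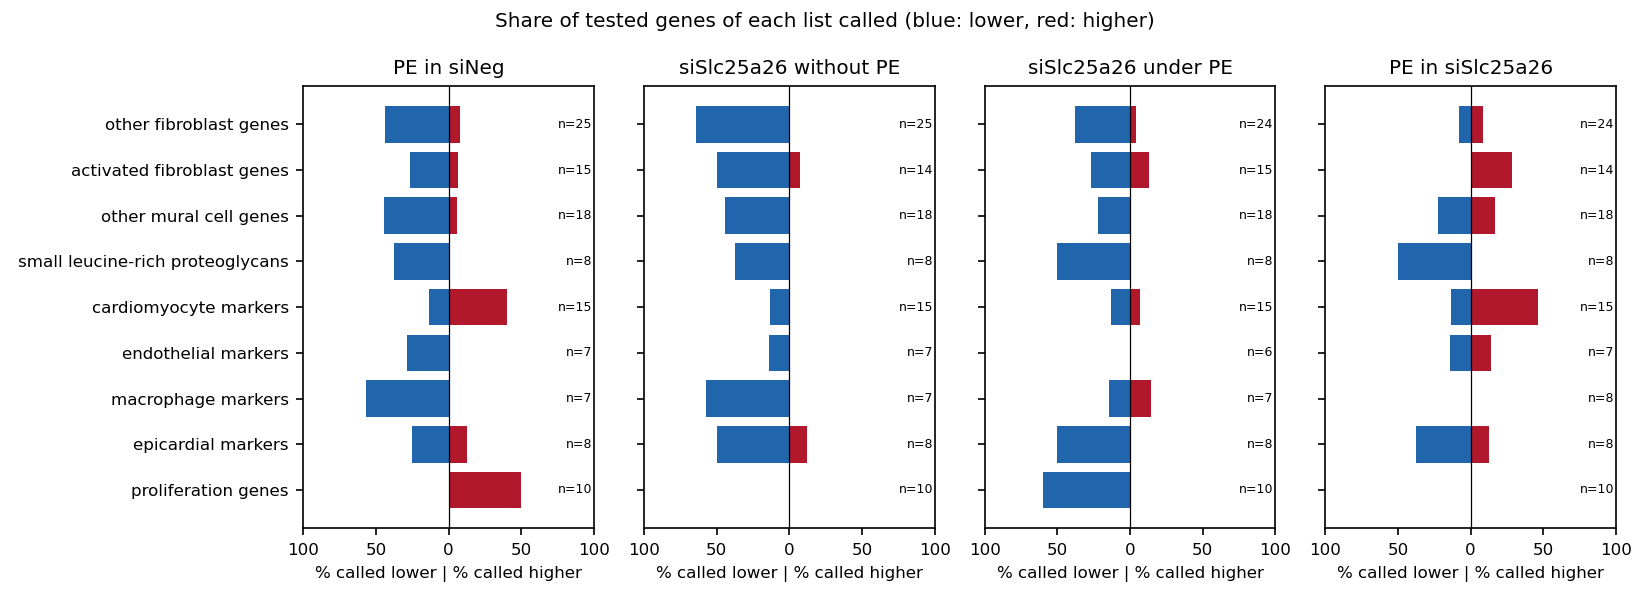
Share of the tested genes of each list called lower (blue, to the left) and higher (red, to the right) in 4 comparisons, in percent, with the number tested at the right. Other fibroblast genes were lower in 11 of 25 with PE in siNeg and in 16 of 25 with siSlc25a26 without PE, and with PE in siSlc25a26 2 of 24 were lower and 2 higher by edgeR, the test plotted here (5 or 6 lower on the FPKM scales). Over all genes, 8.24%, 7.2% and 10.4% were called lower in these comparisons in turn, and 10.1% higher in the last.

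Of the 4 PDGF ligand genes, whose products bind Pdgfra and Pdgfrb, 0 were called in any comparison by edgeR, DESeq2 or limma-voom, with at most 2 at an unadjusted p under 0.05. By edgeR, 2.16 to 12.4% of all genes were called in a given direction, and 4 genes are too few to differ from such shares. The ligand sum was 62.7 to 72.7 CPM in siNeg and 59.7 to 62.8 in siNeg PE. It was 75.0 to 94.25 CPM in siSlc25a26 and 77.7 to 86.7 in siSlc25a26 PE. The list of other intermediate filament genes also holds Syne1, a nuclear envelope gene that does not encode a filament. Among its 11 genes tested with PE in siNeg, 2 rose, Synm (1.77) and Krt18 (2.37), where Vim was lower. Prph (-1.44) fell, as 1 of the 11, beside 12.4% of all genes called higher and 8.24% lower.

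Markers of other cells also differed between the groups. The summed CPM of the cardiomyocyte markers (15 of 15 tested) ranged from 46450 to 48310 in siNeg, 68310 to 75810 in siNeg PE, 42360 to 46750 in siSlc25a26 and 85620 to 92400 in siSlc25a26 PE. With PE in siNeg, 6 of the 15 were called higher and 2 lower, Mb (-0.73) and Ckm (-0.67), beside 12.4% and 8.24% of all genes, and Actc1 (from 6470 to 19860 CPM) and Myh7 (from 9457 to 17560 CPM) gave most of the rise in the sum. With siSlc25a26 without PE, 2 of the 15 were called lower (7.2% of all genes) and 9 were lower at an unadjusted p under 0.05. There the sums overlapped with siNeg in CPM but not in FPKM, where they were 24830 to 26340 against 28010 to 30600 in siNeg. Over the same groups, the macrophage sum was 30.1 to 36.4 CPM in siNeg and 17.0 to 20.2, 19.95 to 20.9 and 16.2 to 21.3 CPM in the others. The epicardial sum was 85.5 to 94.1 CPM in siNeg and 57.2 to 63.2, 60.4 to 69.5 and 42.6 to 47.4 CPM in the others. With PE in siNeg, 4 of 7 macrophage markers tested and 2 of 8 epicardial markers were called lower, and 1 epicardial marker, Upk1b (2.11), was higher, beside 8.24% of all genes lower and 12.4% higher. Without PE, siSlc25a26 lowered 4 of 7 and 4 of 8 and raised 1 epicardial marker, Krt19 (1.46), beside 7.2% and 8.92% of all genes. Krt19 was near the floor, at 0.54 CPM in siNeg. The endothelial sum was 30.5 to 32.8 CPM in siNeg, 31.05 to 31.7 in siSlc25a26 and 31.2 to 33.9 in siSlc25a26 PE. In siNeg PE it was 26.6 to 28.6 CPM, below the other groups without overlap. Emcn, Cldn5, Erg and Vwf were under 0.1 FPKM on average. Single endothelial genes moved within the endothelial sum: with PE in siNeg, 2 of 7 fell, Kdr (-1.08) and Tie1 (-0.69), and with PE in siSlc25a26 Kdr fell (-0.95) and Tek rose (0.72). The Tie1 call was marginal (edgeR adjusted p = 0.0498) and rested on 1.35 CPM in siNeg. For PE in siNeg, DESeq2 called 1 of the 7 lower and limma-voom 3. With PE in siNeg 8.24% of all genes were called lower, and with PE in siSlc25a26 10.4% lower and 10.1% higher. Proliferation genes summed to 212 to 218 CPM in siNeg, 308 to 405 in siNeg PE, 177 to 191 in siSlc25a26 and 184 to 235 in siSlc25a26 PE. With PE in siNeg 5 of 10 rose, beside 12.4% of all genes. In the libraries labelled siSlc25a26 PE, 6 of 10 were lower than in siNeg PE, beside 8.1% of all genes. Of 4 Schwann and neuronal markers tested, 2 fell with siSlc25a26 without PE, S100b (-1.79) and Tubb3 (-0.61), beside 7.2% of all genes. The part of these markers in the changes of the fibroblast and mural genes was not tested.

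Scaling moved the share of called genes that were higher in each comparison, and by more than 10 percentage points in 2 of them. With PE in siSlc25a26, 49.2% of all called genes were higher by edgeR on TMM-scaled counts, but 27.4% and 27.1% by limma on log2(FPKM + 1) and log2(FPKM + 0.1), where the median of all genes lay at -0.125 and -0.171. For the difference between PE effects the share was 39.3% against 23.4% and 22.1%, with medians of -0.109 and -0.143. On these FPKM scales Tcf21 (-0.60 and -0.61) and Vim (-0.59 in both) were called lower with PE in siSlc25a26, and relative to the median of all genes they lay at -0.47 and -0.44, and at -0.47 and -0.42. For the other fibroblast genes, 2 higher and 5 or 6 lower of 24 were called on these scales, against 2 and 2 by edgeR. Cspg4 relative to that median was at 1.05 and 1.12, and its difference between PE effects at 1.07 and 1.13.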

How the data were processed

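RNA of 12 NRVM libraries (4 groups of 3, from the labels) was sequenced by BGI. The authors deposited estimated counts per gene, of which 20.8 to 21.9% per library were not whole, and these were rounded. The authors also deposited FPKM values, scaled by gene length and library size. The submitters' processing notes name HISAT, Bowtie2 and Rnor_6.0 without a role, and the counting program, annotation and strandedness are not given in the sources used here, so reads of a gene and its antisense partner cannot be told apart. The study's text describes another siRNA and other times than the labels, which are followed here.

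Groups were compared with edgeR 4.0.16 (TMM, filterByExpr, quasi-likelihood F test, R 4.3.3), with Benjamini-Hochberg adjustment over all genes tested and no covariate, on the libraries of the groups compared, or on all 12 for the difference of PE effects. Thresholds (1.5-fold, adjusted p of 0.05) follow the study's methods, which use limma. Every adjusted p in the text comes from edgeR unless limma is named. Standard errors come from the F statistic, and CPM use TMM factors over the 12 libraries. Alternatives were DESeq2 1.42.0, limma-voom (limma 3.58.1), DESeq2 size factors or upper-quartile scaling in edgeR, limma on FPKM as log2(value + 1) or log2(value + 0.1), which understates changes of low genes, other filters (none, or at least 10 counts in every library), a replicate block, a joint fit of the 12 libraries, no fold threshold and each library left out. On simulated counts for PE in siNeg, 178 of 200 genes changed 2-fold were called among 13537 tested, with 9 unchanged genes called. The changed genes were drawn above a minimum expected count, and fewer were changed than were called in the data. This share therefore does not describe calls near 1.5-fold.

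The 10 genes and the lists were chosen with earlier results of these data known. Besides the 10, the text names at most the 4 called genes of a list with the largest absolute log2 fold change, Slc25a26, Nppa, the gene nearest in pattern to each of the 10, and markers where a statement turns on them. Promoters were matched by gene ID, and Ccn2 and Podn likewise. P-values measure the spread between the 3 libraries a group, which the labels call independent biological replicates.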

Additional observations from a re-analysis of the deposited data

Results flagged for a closer look

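For 3 of the 10 genes the effect of PE differed between the siRNAs by the test of the difference itself (edgeR over all 12 libraries, adjusted p under 0.05). For Cspg4, PE in siSlc25a26 minus PE in siNeg was 1.1 on the log2 scale (adjusted p = 0.000105), and all 3 libraries labelled siSlc25a26 PE lay above the 9 others. For Pdgfrb the difference was 0.5758 (adjusted p = 0.00224), and PE lowered it in siNeg but was not called in siSlc25a26. For Vim the difference was 0.2435 (adjusted p = 0.0363), and its value on the FPKM scale was 0.13 (limma adjusted p = 0.207 and 0.205 with a pseudocount of 1 and 0.1), or 0.24 and 0.27 relative to the median of all genes on these scales. Slc25a26 itself had a difference of 1.06 (adjusted p = 0.000466), being lower with its siRNA without PE and not under PE, and its part in these differences was not tested.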

How the results depend on the processing

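Directions of values that passed the adjusted p or the call did not turn under any alternative run. Of the single-gene values, 468 kept their side of the call under the other settings, 13 lost the call and 9 gained one, and with one library left out these were 335, 17 and 8. Without a fold threshold, 7 rather than 3 of the 10 genes passed for siSlc25a26 without PE, 5 rather than 2 for PE in siSlc25a26 and 3 rather than 1 for the difference of PE effects. Upper-quartile scaling gave 5 for siSlc25a26 without PE (Lum and Rgs5 added) and 2 for the difference of PE effects, where DESeq2 and DESeq2 size factors in edgeR also gave 2 (Pdgfrb added at 0.60). Leaving out 1 library gave 4 to 5 called genes for PE in siNeg, 2 to 4 for siSlc25a26 without PE, 4 to 6 under PE, 1 to 2 for PE in siSlc25a26 and 1 to 2 for the difference of PE effects. The cause was not tested. Same-numbered libraries were alike in part, with correlations of their deviations from -0.112 to 0.361. These were 0.307, 0.0261 and 0.361 for PE in siNeg and 0.319, 0.00479 and 0.241 for siSlc25a26 under PE, and at most 0.0753 in the other comparisons. In the 4 comparisons, 4, 3, 4 and 0 of 6 libraries correlated best with their own number. Whether same-numbered libraries share a batch was not tested. With the replicate block, 1 rather than 2 genes was called for PE in siSlc25a26, as Rgs5 was lost (0.62, edgeR adjusted p = 0.0762), and no other call changed. Among the 10 genes, depth limits mainly Rgs5, with 48 to 135 counts per library. It also limits list genes such as Comp, Krt19, Mfap5 and Meox1, with means of 0.16, 0.68, 0.52 and 1.5 FPKM over the 12 libraries.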
